A study of Mus musculus with 16 samples.

Results

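The expression of 10 genes of the colonic crypt base and of Wnt feedback was followed in whole mouse colon: *Lgr5*, *Ascl2*, *Smoc2*, *Sox9*, *Axin2*, *Nkd1*, *Rnf43*, *Znrf3*, *Ephb2* and *Ephb3*. They were taken by gene symbol from the 24421 rows of the deposited RNA-seq table, and each symbol matched 1 row. The study set mice with an intestinal epithelial cell deletion of the corepressor NCoR1 against mice with the floxed allele, with and without dextran sulfate sodium (DSS), a detergent-like polymer that injures the colonic epithelium. The groups were NCoR1 DIEC mice on 2.5% DSS (DIEC DSS, genotype labelled ko), NCoR1 F/F mice on 2.5% DSS (F/F DSS, labelled wild type), NCoR1 DIEC mice on water (DIEC naive) and NCoR1 F/F mice on water (F/F naive). All were C57BL/6 and 8 weeks old, and DSS colons were taken on day 3. Each group had 4 libraries, and each library was the pooled RNA of 3 mice, so that spreads and p-values describe pools and not single animals. The labels do not name the Cre driver of the deletion, and the colon was sequenced whole, with its muscle, stroma and immune cells.

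Crypt base columnar stem cells renew the colonic epithelium under Wnt signals from the tissue around the crypt. LGR5 binds R-spondins and so keeps Wnt receptors at the cell surface, which the ubiquitin ligases RNF43 and ZNRF3 otherwise remove. Beta-catenin with TCF factors then switches on target genes, among them inhibitors of the same pathway such as *Axin2* and *Nkd1*, and the EphB receptors that keep crypt base cells apart from ephrin-B-bearing cells higher up.

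Promoter sequence was available for 6 of the 10 genes, in 7 promoters, from RefSeq on GRCm38.p6, while *Lgr5*, *Smoc2*, *Znrf3* and *Sox9* are named only. The 250 bases before the start are shown for *Ascl2* and *Axin2*, which had the largest falls in DIEC DSS among these 6 genes, for *Ephb3*, which had a smaller fall, and for *Nkd1*, which rose. All are written 5' to 3' on the gene's own strand, with the E-box CAGCTG in capitals where a copy occurs.
Ascl2, chr7:142969265-142969514, minus strand: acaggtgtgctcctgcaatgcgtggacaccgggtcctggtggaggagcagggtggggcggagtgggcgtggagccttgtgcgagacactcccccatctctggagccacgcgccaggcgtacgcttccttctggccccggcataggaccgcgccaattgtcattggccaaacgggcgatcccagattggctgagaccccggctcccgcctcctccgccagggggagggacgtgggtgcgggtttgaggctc
Axin2, chr11:108920099-108920348, plus strand: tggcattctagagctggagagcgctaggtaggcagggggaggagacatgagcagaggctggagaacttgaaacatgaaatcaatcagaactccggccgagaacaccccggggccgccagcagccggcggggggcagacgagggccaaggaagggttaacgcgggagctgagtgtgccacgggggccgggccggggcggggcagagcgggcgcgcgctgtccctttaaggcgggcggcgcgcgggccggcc
Ephb3, chr16:21204545-21204794, plus strand: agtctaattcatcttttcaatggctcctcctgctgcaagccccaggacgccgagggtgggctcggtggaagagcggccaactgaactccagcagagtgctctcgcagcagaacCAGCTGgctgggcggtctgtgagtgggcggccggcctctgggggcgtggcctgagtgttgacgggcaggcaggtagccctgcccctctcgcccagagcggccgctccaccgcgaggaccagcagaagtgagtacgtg
Nkd1, chr8:88527383-88527632, plus strand: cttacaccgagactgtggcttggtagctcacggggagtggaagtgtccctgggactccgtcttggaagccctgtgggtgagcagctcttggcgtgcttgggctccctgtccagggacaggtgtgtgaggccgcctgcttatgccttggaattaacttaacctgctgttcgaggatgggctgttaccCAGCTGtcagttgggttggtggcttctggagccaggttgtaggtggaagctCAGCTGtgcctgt
The E-box CAGCTG, whose letters read the same on both strands, lay 137 bases before the start of *Ephb3*, and 64 and 13 bases before that of *Nkd1*. It occurred in 2 of the 7 promoters of the 10 genes and in 13.0% of all 32851 mouse promoters of this length. The TCF/LEF letters CTTTGAA or CTTTGAT, searched on both strands, occurred in 0 of the 7 windows and in 7.48% of all promoters. The shorter core CTTTG, which those letters contain, occurred in 0 of 7 and in 48.6%, and TATAAA on both strands in 0 of 7 and in 12.4%. GC content was 67.6% for *Ascl2*, 69.2% for *Axin2*, 65.6% for *Ephb3*, 68.4% for *Ephb2* and 58.4% for *Nkd1*, against a median of 52.4% over all promoters. Both *Rnf43* promoters were lower, at 44.4% and 45.2%. These matches describe the letters of the windows and not bound sites.

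The deposited values are reads on the exons of each gene, scaled so that every library sums to the same total (between 26554078 and 26554094), and are called scaled reads. The libraries held between 22883415 and 30342046 reads on genes in DIEC DSS, between 26363572 and 34733832 in F/F DSS, between 19957413 and 29183138 in DIEC naive, and between 22502529 and 27547730 in F/F naive. *Ncor1* averaged 1538 ± 139 scaled reads in DIEC DSS, 3803 ± 184 in F/F DSS, 1841 ± 96.1 in DIEC naive and 3610 ± 125 in F/F naive (SD, n = 4 each), lower in every DIEC library than in every F/F library. The summed level of 8 epithelial markers was between 368000 and 413000 in the DIEC DSS libraries and between 364000 and 384000 in F/F DSS, and in naive colon between 274000 and 330000 for DIEC and between 287000 and 320000 for F/F. Sums of 8 smooth muscle markers were also higher with DSS, at 240000 to 298000 in DIEC DSS and 240000 to 303000 in F/F DSS, against 147000 to 173000 and 176000 to 231000 in the naive groups of the same genotypes. Sums of 8 immune cell markers were lower, between 3710 and 11200 in DIEC DSS and between 8780 and 11900 in F/F DSS, with naive ranges of 19800 to 31500 (DIEC) and 34900 to 48700 (F/F). Sums weigh the most abundant markers, and the median log2 change of these 8 with DSS was -0.49 in DIEC and -0.34 in F/F colon. The limma test described below called 3 of the 8 lower in each genotype, beside 40.0% of all genes in DIEC and 28.5% in F/F colon. Sums of 8 pancreatic acinar markers were 7420 to 10900 in DIEC DSS and 10100 to 13500 in F/F DSS, and reached 474000 in DIEC naive 1 and 98700 in F/F naive 4. DIEC DSS 3 lay apart on the second principal component, at 60.42 against at most 29.98 for any other library. The part of tissue makeup in the results that follow was not tested, and in bulk tissue fewer cells of a type and less RNA per cell cannot be told apart.

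**Figure D1:**
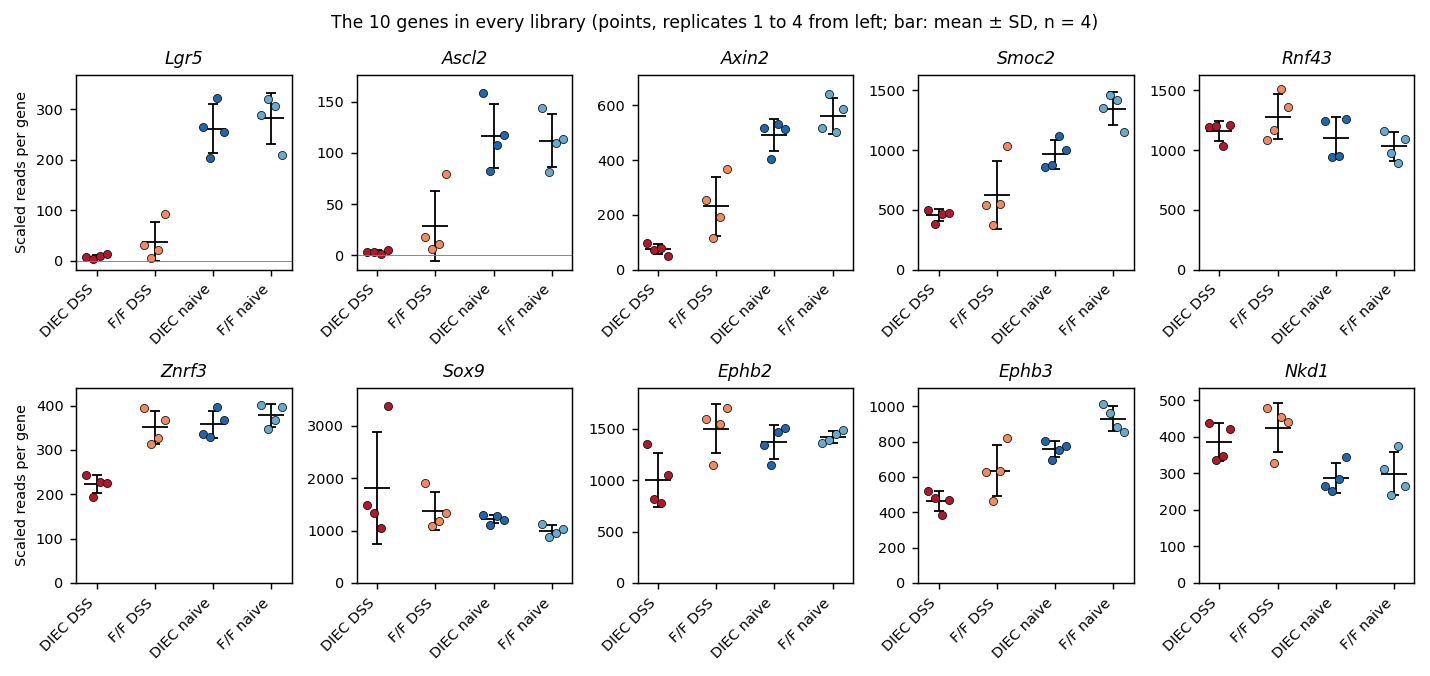
Scaled reads per gene (vertical axes, linear, starting at 0 or below where an error bar reaches below 0) of the 10 genes in DIEC DSS, F/F DSS, DIEC naive and F/F naive colon; points are libraries and bars the mean ± SD over 4 libraries. *Lgr5*, *Ascl2* and *Axin2* lie lower in both DSS groups than in the naive groups and have their lowest means in DIEC DSS, while *Rnf43*, *Nkd1* and *Sox9* do not lie lower with DSS.

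*Lgr5*, *Ascl2*, *Smoc2*, *Axin2* and *Ephb3* fell with DSS in both genotypes, by the widest margin for *Lgr5* and *Ascl2*, while the Wnt feedback gene *Nkd1* rose in both. In DIEC colon, 7 of the 10 genes fell and 1 rose with DSS (limma on log2 of scaled reads plus 1, Benjamini-Hochberg adjusted p under 0.05 over 18267 genes). Of all genes tested, 40.0% were called lower and 12.3% higher in that comparison. In F/F colon, 5 of the 10 fell and 2 rose, where 28.5% of all genes were called lower and 16.3% higher. The median log2 change of the 10 genes was -0.70 in DIEC and -0.34 in F/F colon, and the median of all genes tested -0.24 and -0.11. Scaling by TMM divides each library by 1 factor, on the assumption that most genes do not change. It moved the median of all genes to -0.00727 in DIEC and -0.0125 in F/F colon. Those of the genotype comparisons below moved from about -0.20 with DSS and -0.16 in the interaction to -0.0218 and -0.0169. Calls over all genes were then 25.1% higher and 26.3% lower in DIEC, and 22.8% higher and 22.5% lower in F/F colon. After TMM scaling, 6 of the 10 genes fell and 3 rose in DIEC colon, and 5 fell and 2 rose in F/F colon. DSS and naive libraries did not overlap for 6 of the 10 genes in DIEC and 5 in F/F colon, all lower with DSS. Over all genes the share without overlap was 35.9% lower and 9.59% higher in DIEC, and 27.4% lower and 15.5% higher in F/F colon.

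*Lgr5*, the receptor that marks crypt base columnar stem cells, lies on the minus strand of chromosome 10 (114887370 to 115024836; positions are those of the deposited table, whose header names mm9). It had 6.25, 2.63, 9.28 and 12.2 scaled reads in the 4 DIEC DSS libraries, against 264, 204, 322 and 254 in DIEC naive. In F/F colon it had 30.2, 4.59, 21.3 and 93.2 in the DSS libraries, against 289, 321, 307 and 209.8 in the naive ones. All 8 DSS libraries lay below all 8 naive libraries, and the F/F DSS libraries were spread more widely than the DIEC DSS libraries. The log2 change was -5.06 ± 0.65 in DIEC (SE, adjusted p = 1.7e-05) and -3.5 ± 0.65 in F/F colon (adjusted p = 0.00066), where it was -2.79 without F/F DSS 2 and -4.15 without F/F DSS 4, and -2.87 with edgeR on the recovered reads. DIEC DSS averaged 2.9% of the DIEC naive mean, and F/F DSS 13.3% of the F/F naive mean, with single F/F libraries between 1.63% and 33.1%. The DIEC DSS libraries together held 30 reads of *Lgr5*, so that their level is known only to the precision of so few reads.

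*Ascl2*, a basic helix-loop-helix factor that maintains the same stem cells, lies on the minus strand of chromosome 7 (150152727 to 150155169). It had 3.13, 3.5, 1.16 and 5.61 scaled reads in DIEC DSS, from 14 reads in all, against 158, 82.8, 108 and 118 in DIEC naive. F/F DSS libraries had 18.1, 6.12, 10.6 and 79.9, against 144, 81.0, 109.7 and 114 in F/F naive. 3 of the 4 F/F DSS libraries were far below the naive range, and the remaining one, F/F DSS 4, lay just under the lowest F/F naive library. The log2 change was -4.83 ± 0.57 in DIEC (adjusted p = 4.3e-06) and -2.55 ± 0.57 in F/F colon (adjusted p = 0.002), and there -3.25 without F/F DSS 4 and -1.9 with edgeR on the recovered reads.

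*Smoc2*, a secreted matricellular protein of the stem cell signature in mouse crypts, lies on the plus strand of chromosome 17 (14416513 to 14541797). It fell to a similar share of naive in the 2 genotypes, 47.3% in DIEC and 46.5% in F/F colon. Its DSS libraries spanned 384 to 496 scaled reads in DIEC, against 858 to 1120.3 in DIEC naive, and 374 to 1038 in F/F DSS, against 1148 to 1459 in F/F naive. The log2 change was -1.08 ± 0.22 in DIEC (adjusted p = 0.00076) and -1.2 ± 0.22 in F/F colon (adjusted p = 0.00048), with no overlap of DSS and naive libraries in either. The ratio of *Lgr5* to *Smoc2* within a library, which no scaling of libraries can move, averaged 0.0162 in DIEC DSS and 0.0492 in F/F DSS, against 0.27 in DIEC naive and 0.208 in F/F naive. Sums of 8 fibroblast markers were between 25700 and 49700 in DIEC DSS libraries and 30100 and 42900 in F/F DSS, against 37000 and 51300 in DIEC naive and 44200 and 63500 in F/F naive. The median log2 change of these 8 with DSS was -0.28 in DIEC and -0.43 in F/F colon. Of the 8, 1 was called lower in DIEC and 3 in F/F colon, beside 40.0% and 28.5% of all genes. After TMM scaling 0 and 3 were called lower, beside 26.3% and 22.5% of all genes.

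*Sox9*, a transcription factor of stem and progenitor cells, lies on the plus strand of chromosome 11 (112643524 to 112649071) and did not pass the test in either genotype. It had 1489, 1334, 1044 and 3385 scaled reads in DIEC DSS, against 1116 to 1297 in DIEC naive, and 1089 to 1903 in F/F DSS, against 878 to 1125 in F/F naive. DIEC DSS 4 stood far above every other library. The log2 change was 0.42 ± 0.29 in DIEC (adjusted p = 0.25) and 0.43 ± 0.29 in F/F colon (adjusted p = 0.24). Without DIEC DSS 4 the limma change in DIEC colon was 0.06 (adjusted p = 0.78). In DIEC colon edgeR's quasi-likelihood test on the recovered reads called *Sox9* higher, at a log2 change of 0.81 (adjusted p = 0.024), and limma after TMM scaling also called it, at 0.67 and an adjusted p that rounds to 0.05. In F/F colon the fit of only the groups compared called it higher (adjusted p = 0.047), and the authors' deposited table gives a log2 fold change of 0.56 there (adjusted p = 0.0013).

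*Axin2*, a scaffold of the beta-catenin destruction complex and a widely used readout of Wnt signalling, lies on the plus strand of chromosome 11 (108781663 to 108812095). It had 98.0, 71.8, 78.9 and 51.4 scaled reads in DIEC DSS, against 519, 403, 529.6 and 514 in DIEC naive. In F/F DSS it had 253, 114, 192 and 368, against 515, 642, 502 and 585 in F/F naive. The groups did not overlap in either genotype, and all 4 F/F DSS libraries lay above all 4 DIEC DSS libraries. The log2 change was -2.72 ± 0.27 in DIEC (adjusted p = 6.7e-07) and -1.39 ± 0.27 in F/F colon (adjusted p = 0.0007).

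*Nkd1*, an inhibitor that binds Dishevelled and is itself induced by Wnt signalling, lies on the plus strand of chromosome 8 (91045243 to 91118786) and moved the other way. It spanned 337 to 437 scaled reads in DIEC DSS, against 252 to 346 in DIEC naive, and 328 to 478 in F/F DSS, against 242 to 375 in F/F naive. It rose by 0.43 ± 0.15 on the log2 scale in DIEC (adjusted p = 0.022) and by 0.51 ± 0.15 in F/F colon (adjusted p = 0.009). The DIEC call was lost without DIEC DSS 1 or 4 or DIEC naive 1 or 2, with adjusted p up to 0.068, and both calls were lost when libraries were set equal in their epithelial markers. The ratio of *Nkd1* to *Axin2* within a library spanned 4.4 to 8.22 in DIEC DSS and 1.19 to 2.88 in F/F DSS, against 0.511 to 0.674 in DIEC naive and 0.377 to 0.748 in F/F naive. In naive colon *Axin2* was thus above *Nkd1* in all 8 libraries, and with DSS *Nkd1* was above *Axin2* in all 8.

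*Rnf43* and *Znrf3* encode paralogous membrane ubiquitin ligases that clear Frizzled receptors. *Znrf3* (chromosome 11, minus strand, 5176332 to 5281743) had 243, 194, 229 and 226 scaled reads in DIEC DSS, against 336, 330.3, 397 and 368 in DIEC naive. In F/F colon it had 395, 313, 328 and 367 with DSS, against 402, 347, 367 and 398 without. It fell in DIEC (log2 change -0.68 ± 0.10, adjusted p = 1.9e-05) and did not pass the test in F/F colon (-0.11 ± 0.10, adjusted p = 0.41), where it was called lower when libraries were set equal in epithelial markers (-0.41, adjusted p = 0.0028). *Rnf43* (chromosome 11, plus strand, 87476589 to 87549041) spanned 1030.4 to 1206 scaled reads in DIEC DSS, against 944 to 1257 in DIEC naive, and 1082 to 1509 in F/F DSS, against 893 to 1160.0 in F/F naive. It rose in F/F colon by 0.31 ± 0.12 (adjusted p = 0.042), a call lost without F/F DSS 3 or 4 or F/F naive 2 or 3 (adjusted p up to 0.16), and was not called in DIEC (0.09 ± 0.12, adjusted p = 0.58). After TMM scaling it was called higher in both, by 0.34 in DIEC (adjusted p = 0.016) and 0.41 in F/F (adjusted p = 0.0058). With libraries set equal in epithelial markers it was called in neither, with values of -0.27 and 0.01. The ratio of *Rnf43* to *Znrf3* within a library spanned 4.51 to 6.18 in DIEC DSS and 2.74 to 4.6 in F/F DSS, against 2.39 to 3.7 in DIEC naive and 2.43 to 2.89 in F/F naive.

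*Ephb2* and *Ephb3* encode receptor tyrosine kinases of the crypt base. *Ephb3* (chromosome 16, plus strand, 21204868 to 21223377) fell in both genotypes, with log2 changes of -0.71 ± 0.13 in DIEC (adjusted p = 0.00012) and -0.57 ± 0.13 in F/F colon (adjusted p = 0.0014). It spanned 385 to 518 scaled reads in DIEC DSS, against 697 to 802 in DIEC naive, and 465 to 821 in F/F DSS, against 857 to 1011 in F/F naive, with no overlap. *Ephb2* (chromosome 4, minus strand, 136203456 to 136391927) had 1358, 820.0, 781 and 1049 scaled reads in DIEC DSS, against 1347, 1146, 1473 and 1511 in DIEC naive. 3 of the 4 DIEC DSS libraries lay below the naive range and DIEC DSS 1 lay inside it. In F/F colon the values were 1597, 1154, 1552 and 1704 with DSS, against 1361, 1392, 1450.3 and 1486 without. *Ephb2* fell in DIEC (log2 change -0.48 ± 0.15, adjusted p = 0.014), but after TMM scaling the change was -0.22 (adjusted p = 0.16) and without DIEC DSS 3 the adjusted p was 0.051. In F/F colon the log2 change was 0.06 ± 0.15 (adjusted p = 0.77). Within a library *Ephb2* was 1.7 to 2.62 times *Ephb3* in DIEC DSS and 2.08 to 2.55 times in F/F DSS, against 1.64 to 1.95 times in DIEC naive and 1.35 to 1.73 times in F/F naive.

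**Figure D2:**
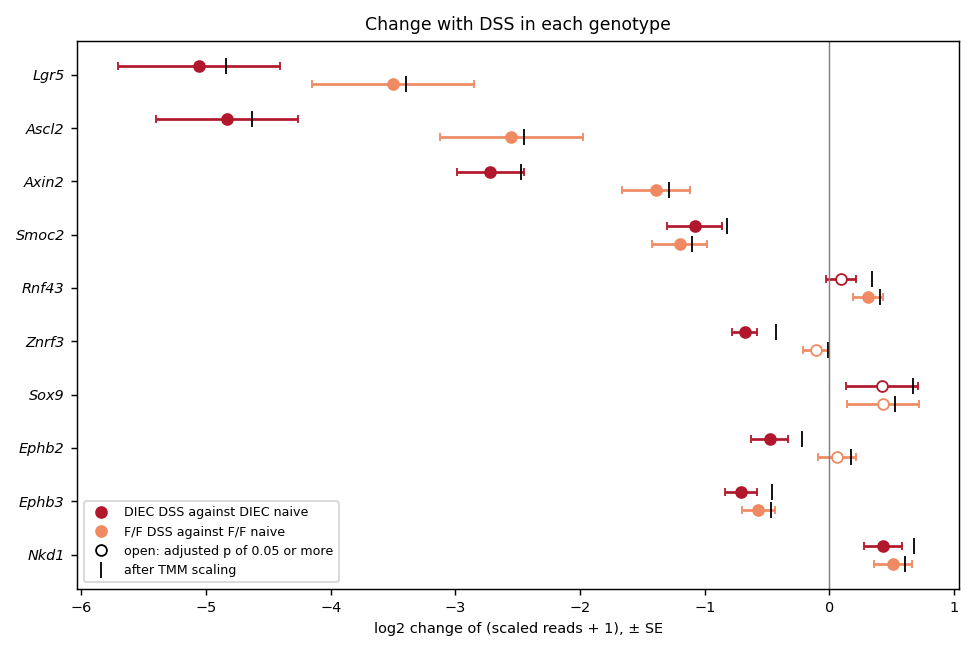
Log2 change of scaled reads plus 1 (horizontal axis) of each of the 10 genes with DSS, in DIEC colon and in F/F colon; circles are limma estimates with bars of 1 SE, filled where the adjusted p was under 0.05, and ticks are the values after TMM scaling. *Lgr5*, *Ascl2*, *Axin2*, *Smoc2* and *Ephb3* are filled on the left in both genotypes, and *Nkd1* on the right in both.

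Per kilobase of transcript, the order of the 10 genes differed between the naive and the DSS groups. In F/F naive colon *Smoc2* was highest at 477 scaled reads per kilobase, followed by *Sox9*, *Rnf43* and *Ephb3* between 225 and 241 per kilobase with overlapping libraries. *Axin2* and *Ephb2* were at 132 and 130.4, and *Ascl2*, *Nkd1*, *Lgr5* and *Znrf3* came last between 52.7 and 69.7 per kilobase, each overlapping the next. In DIEC naive *Smoc2* was also highest, at 342, but its libraries overlapped those of *Sox9* at 295. *Rnf43* at 255 and *Ephb3* at 183 followed, and *Ephb2* at 126 stood above *Axin2* at 116, with overlap. *Ascl2*, *Nkd1*, *Lgr5* and *Znrf3* came last there too, between 49.8 and 72.6 per kilobase. In DIEC DSS *Sox9* was highest at 438 ± 257 and *Rnf43* next at 269 ± 19.7 per kilobase, and their libraries overlapped. *Smoc2* was at 162, and *Ephb3*, *Ephb2* and *Nkd1* lay between 89.7 and 112. *Znrf3* followed at 31.0 and *Axin2* at 17.7, with no overlap between these neighbours. *Ascl2* at 2.08 and *Lgr5* at 1.62 per kilobase came last and overlapped each other. F/F DSS kept *Sox9* at 332 ± 88.4 and *Rnf43* at 298 ± 44.5 per kilobase at the top and *Ascl2* at 17.9 ± 21.5 and *Lgr5* at 7.96 ± 8.26 at the bottom, but there every gene overlapped its neighbour in the order.

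The spread among F/F DSS libraries was shared by several of the genes. *Lgr5*, *Ascl2*, *Axin2* and *Ephb2* ranked the 4 libraries in the same way, with F/F DSS 4 highest, then 1, then 3, and F/F DSS 2 lowest. F/F DSS 4 was the highest of its group for 6 of the 10 genes and F/F DSS 2 the lowest for 9. Summed levels of 15 proliferation genes had the same order of libraries, at 6640 in F/F DSS 1, 3450 in 2, 5650 in 3 and 9630 in 4, against 19800 to 34400 in F/F naive. In DIEC DSS these sums were 2850, 3750, 2390 and 3000 in libraries 1 to 4, against 18700 to 25100 in DIEC naive. DIEC DSS 2, with the highest sum of its group, was the lowest library for 4 of the 10 genes, among them *Lgr5*. DIEC DSS 3, with the lowest sum, was the lowest library for 5 of the 10. The part of dividing cells in the results was not tested. In DIEC naive, replicate 2 was the lowest of its group for 9 of the 10 genes, with a proliferation sum of 23100 that was not the lowest.

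**Figure D3:**
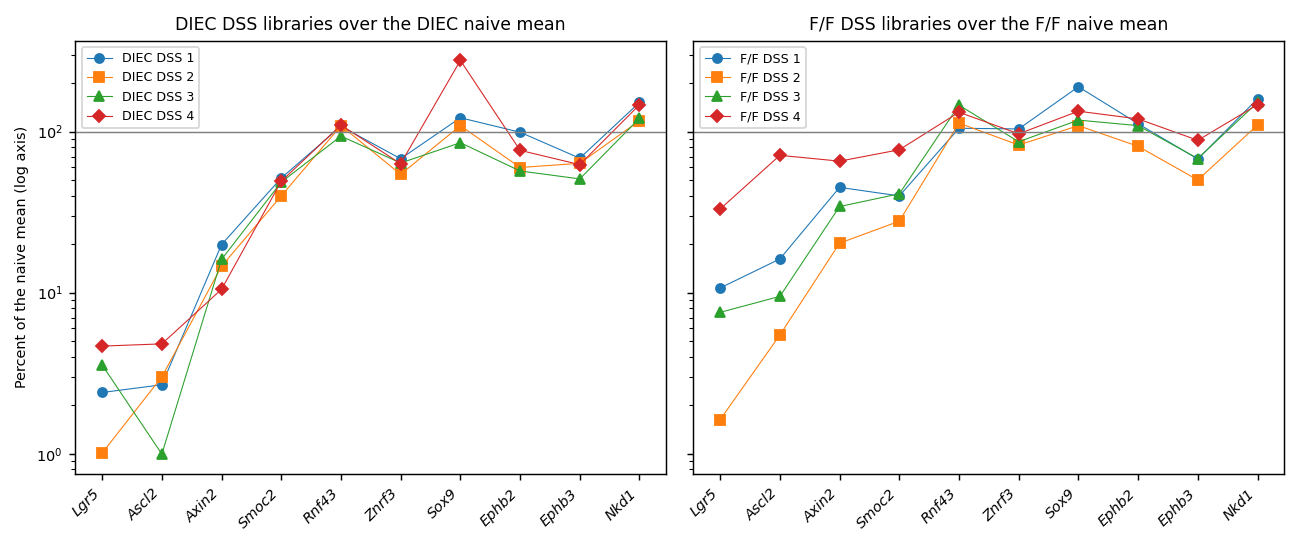
Each DSS library as a percent of the naive mean of its genotype (vertical log axis), for the 10 genes along the horizontal axis; each marker shape is 1 library, and thin lines only join the points of a library. For *Lgr5* the 4 DIEC DSS libraries lie between 1.01% and 4.66%, and the 4 F/F DSS libraries between 1.63% and 33.1%.

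The genotypes were next compared without DSS, to ask whether loss of epithelial NCoR1 alone moved these genes. None of the 10 was called in naive colon by limma, where 0.821% of all genes were called lower and 1.41% higher, and edgeR and DESeq2 called none either. *Smoc2* and *Ephb3* had an unadjusted p under 0.05 and no overlap between the groups, lower in DIEC naive, where 6.37% of all genes were lower and 4.33% higher without overlap. TMM scaling also called none of the 10, beside 0.673% of all genes lower and 1.78% higher. *Smoc2* averaged 964 ± 121 scaled reads in DIEC naive and 1345 ± 138 in F/F naive, a log2 difference of -0.48 ± 0.22 (unadjusted p = 0.046, adjusted p = 0.35). *Ephb3* averaged 757 ± 44.5 in DIEC naive and 929 ± 70.5 in F/F naive, a log2 difference of -0.29 ± 0.13 (unadjusted p = 0.0356, adjusted p = 0.32). The fit takes a shared spread per gene over all 16 libraries, and *Lgr5* and *Ascl2* varied most in F/F DSS. The SD of *Lgr5* was 103.8% of its mean there, against 53.9% in DIEC DSS, 18.6% in DIEC naive and 17.6% in F/F naive. For *Ascl2* it was 120.2%, against 54.4% in DIEC DSS, 26.9% in DIEC naive and 22.9% in F/F naive. The 95% interval of the log2 difference was wide for both, from -1.51 to 1.29 for *Lgr5* and from -1.16 to 1.26 for *Ascl2*. The interval was narrower for *Axin2* (-0.77 to 0.39), *Rnf43* (-0.17 to 0.33), *Znrf3* (-0.30 to 0.14), *Ephb2* (-0.39 to 0.26), *Nkd1* (-0.36 to 0.26) and *Sox9* (-0.32 to 0.91). With only these 2 groups in the fit, *Smoc2* was called lower. In the authors' deposited table *Smoc2* had a log2 fold change of -0.45 in this comparison (adjusted p = 0.0088). The other genes of the 10 had an adjusted p above 0.05, and the share of all genes under 0.05 in that table is not given here.

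The same comparison was made with DSS. In DIEC DSS against F/F DSS, 5 of the 10 genes were lower and none was higher, where 26.0% of all genes were called lower and 3.28% higher. The median log2 difference was -0.52 for the 10 genes and -0.20 over all genes tested. After TMM scaling 4 of the 10 were lower, where 7.38% of all genes were called lower and 6.68% higher. Groups did not overlap for 3 of the 10, lower in DIEC DSS, beside 21.9% of all genes lower and 3.1% higher without overlap. These comparisons share the F/F DSS and DIEC DSS libraries with the DSS responses above and are not independent of them.

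*Axin2* averaged 75.0 ± 19.2 scaled reads in DIEC DSS and 232 ± 107 in F/F DSS, a log2 difference of -1.53 ± 0.27 (adjusted p = 0.00094). *Ascl2* averaged 3.35 ± 1.82 in DIEC DSS and 28.7 ± 34.5 in F/F DSS, a log2 difference of -2.23 ± 0.57 (adjusted p = 0.009). The 2 groups did not overlap for either gene. The *Ascl2* difference was -1.53 without F/F DSS 4 (adjusted p = 0.0065), and its call was lost with limma voom on the recovered reads (adjusted p = 0.088). *Znrf3* averaged 223 ± 20.5 in DIEC DSS and 351 ± 37.3 in F/F DSS, a log2 difference of -0.65 ± 0.10 (adjusted p = 0.00027), and also did not overlap.

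Both Eph receptors were lower in DIEC DSS, with overlap. *Ephb2* averaged 1002 ± 265 scaled reads in DIEC DSS and 1502 ± 241 in F/F DSS, a log2 difference of -0.60 ± 0.15 (adjusted p = 0.0074), and -0.41 after TMM scaling (adjusted p = 0.042). *Ephb3* averaged 464 ± 56.2 in DIEC DSS and 636 ± 145 in F/F DSS, a log2 difference of -0.43 ± 0.13 (adjusted p = 0.017). The *Ephb3* call was lost after TMM scaling (-0.24, adjusted p = 0.18), without F/F DSS 4 and without DIEC DSS 3.

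*Lgr5* averaged 7.58 ± 4.08 scaled reads in DIEC DSS and 37.3 ± 38.7 in F/F DSS, a log2 difference of -1.67 ± 0.65 that did not pass the test (adjusted p = 0.07). Its groups overlapped because F/F DSS 2, at 4.59, lay inside the DIEC DSS range, and without that library the difference was -2.38 (adjusted p = 0.0015). Without F/F DSS 4 it was -1.03 (adjusted p = 0.18). DESeq2 on the recovered reads called *Lgr5* lower (adjusted p = 0.011). *Smoc2* (-0.36, adjusted p = 0.25) and *Sox9* (0.28, adjusted p = 0.51) were not called, and *Smoc2* was called lower without F/F DSS 2 (-0.57, adjusted p = 0.029) but was at -0.08 without F/F DSS 4 (adjusted p = 0.71). *Rnf43* (-0.14, adjusted p = 0.42) and *Nkd1* (-0.13, adjusted p = 0.54) were not called and changed sign after TMM scaling, to 0.05 and 0.06. The 95% intervals of the log2 difference were -0.39 to 0.11 for *Rnf43* and -0.45 to 0.18 for *Nkd1*. In the authors' deposited table the adjusted p in this comparison was 0.048 for *Lgr5*, 0.0052 for *Ascl2* and 0.000296 for *Axin2*, all lower in DIEC DSS. It was above 0.05 for the other genes of the 10, and the share of all genes under 0.05 in that table is not given here.

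**Figure D4:**
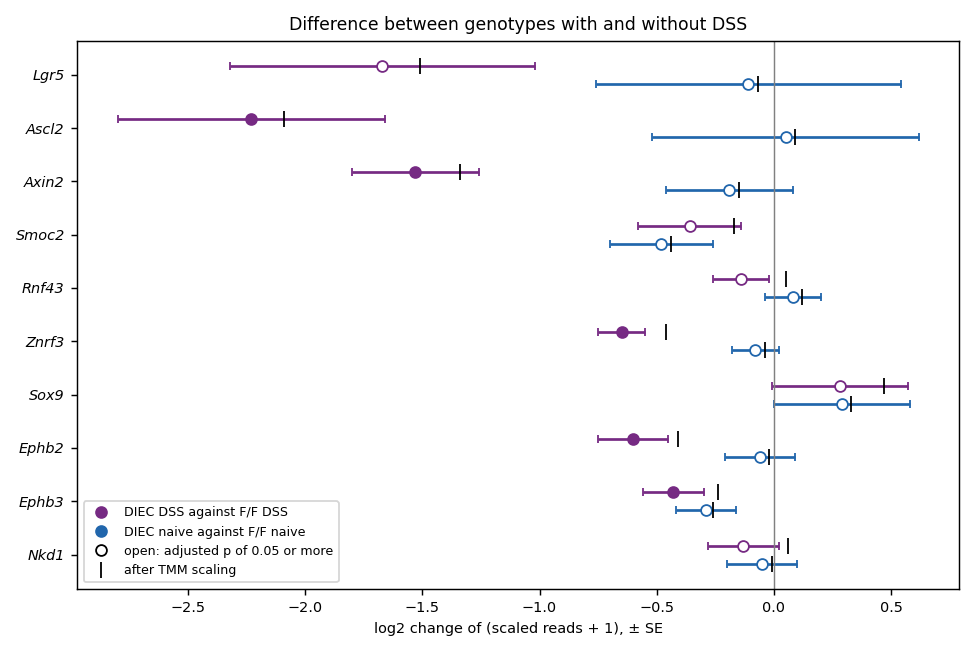
Log2 difference between DIEC and F/F colon of scaled reads plus 1 (horizontal axis) for each of the 10 genes, with DSS and without; circles are limma estimates with bars of 1 SE, filled where the adjusted p was under 0.05, and ticks are the values after TMM scaling. The 5 filled circles, all with DSS and all left of 0, are *Ascl2*, *Axin2*, *Znrf3*, *Ephb2* and *Ephb3*.

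Whether the DSS response itself differed between genotypes was tested by the interaction, the DSS change in DIEC minus that in F/F colon. *Znrf3* was the 1 gene of the 10 called, at -0.57 ± 0.15 (adjusted p = 0.042), where 3.34% of all genes were called lower and 0.29% higher. Of 16 fits without 1 library the call held in 4, those without F/F DSS 2, F/F naive 1, DIEC DSS 1 or DIEC naive 2, with adjusted p over all 16 between 0.017 and 0.09. It was lost after TMM scaling (-0.42, adjusted p = 0.15), when 0.383% of all genes were called lower and 0.257% higher. *Axin2* was at -1.33 ± 0.38 (adjusted p = 0.064), *Ascl2* at -2.28 ± 0.80 (adjusted p = 0.11), *Ephb2* at -0.54 ± 0.22 (adjusted p = 0.15) and *Lgr5* at -1.56 ± 0.92 (adjusted p = 0.34). Without F/F DSS 2, the library lowest for 9 of the 10 genes, 5 were called lower in the interaction: *Lgr5*, *Ascl2*, *Axin2*, *Znrf3* and *Ephb2*. In that fit 1584 of all 18267 genes were called lower, against 611 with all libraries. Without DIEC DSS 1, *Axin2* (adjusted p = 0.046), *Ephb2* (adjusted p = 0.03) and *Znrf3* (adjusted p = 0.03) were called lower, in a fit that called 917 of all 18267 genes lower. DESeq2 and epithelial scaling also called *Axin2*. For *Lgr5* (adjusted p = 0.039) and *Ascl2* (adjusted p = 0.03) the fit without F/F DSS 2 was the 1 fit of those run in which the difference in response passed the test. Without F/F DSS 4 the interaction was -0.92 for *Lgr5* (adjusted p = 0.52) and -1.58 for *Ascl2* (adjusted p = 0.1).

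Other genes of the pathway were read from lists of related genes, whose counts stand against the shares of all genes called: with DSS, 40.0% lower and 12.3% higher in DIEC and 28.5% lower and 16.3% higher in F/F colon. Of 22 other crypt stem and progenitor genes, 16 fell and 1 rose with DSS in DIEC colon, and 13 fell and 3 rose in F/F colon; after TMM scaling 11 fell and 2 rose in DIEC and 12 fell and 3 rose in F/F colon, when 26.3% and 22.5% of all genes fell. *Sox4*, a transcription factor of progenitors, fell by 1.82 ± 0.14 in DIEC (adjusted p = 1.3e-08) and fell by 1.12 ± 0.14 in F/F colon (adjusted p = 8.3e-06) on the log2 scale. *Cdk6*, a kinase of the G1 phase, fell by 1.44 ± 0.11 in DIEC (adjusted p = 1.3e-08) and fell by 0.73 ± 0.11 in F/F colon (adjusted p = 5.1e-05). *Olfm4*, a stem cell marker scarce in mouse colon, was at 0 in all 8 DSS libraries, against 5.88 to 18.4 scaled reads in DIEC naive and 2.89 to 10.3 in F/F naive. *Clic6* was the opposite in F/F colon, where it rose by 0.68 ± 0.09 (adjusted p = 9.1e-06). In DIEC DSS against F/F DSS, 13 of the 22 were lower and none higher, where 26.0% of all genes were lower, and after TMM scaling 7 were lower and 1 higher, where 7.38% of all genes were lower. *Hopx*, a marker of slow-cycling crypt cells, was lower there, with a log2 difference of -1.27 ± 0.18 (adjusted p = 0.00015). In naive colon *Aqp4* was the 1 gene of this list called, lower in DIEC naive with a log2 difference of -1.13 ± 0.22 (adjusted p = 0.013).

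Of 17 other Wnt target genes, 9 fell and 1 rose in DIEC colon, and 5 fell and 3 rose in F/F colon, or 5 fell and 4 rose in DIEC after TMM scaling. The F/F counts are near the shares of all genes, 28.5% lower and 16.3% higher. The DIEC counts after TMM scaling are also near those shares, then 26.3% lower and 25.1% higher. *Slc12a2*, a chloride cotransporter of crypt base cells, fell by 1.66 ± 0.13 in DIEC (adjusted p = 1.3e-08) and fell by 1.38 ± 0.13 in F/F colon (adjusted p = 6.9e-07). *Myc*, which drives growth and ribosome production, fell by 1.24 ± 0.17 in DIEC colon (adjusted p = 6e-06), and *Cd44*, a hyaluronan receptor, fell by 1.08 ± 0.21 in F/F colon (adjusted p = 0.00073). *Cdx1*, a homeobox factor of intestinal identity, rose by 0.60 ± 0.09 in F/F colon (adjusted p = 2.2e-05) and was lower in DIEC DSS than in F/F DSS, with a log2 difference of -0.65 ± 0.09 (adjusted p = 5.5e-05). All 15 proliferation genes fell with DSS in both genotypes, and 11 were lower in DIEC DSS than in F/F DSS, or 3 after TMM scaling, where 26.0% and 7.38% of all genes were lower.

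Wnt ligands and receptors were called in both directions. Of 15 Wnt ligands tested, 3 rose and 2 fell in DIEC colon, and 4 rose and 2 fell in F/F colon. Their median log2 change was 0.47 in DIEC and 0.36 in F/F colon. *Wnt2b*, made by stromal cells, fell by 1.67 ± 0.27 in DIEC (adjusted p = 5.4e-05) and fell by 1.02 ± 0.27 in F/F colon (adjusted p = 0.0049). *Wnt8b* went the other way, averaging 364 scaled reads in DIEC DSS and 187 in F/F DSS, against 183 in DIEC naive and 102 in F/F naive. Between genotypes, 1 ligand was called higher in DIEC naive, and 1 higher and 1 lower in DIEC DSS. Of all genes, 1.41% were higher in DIEC naive, and 3.28% higher and 26.0% lower in DIEC DSS. Of 5 R-spondins and receptors tested, *Rspo3* rose in DIEC colon by 0.63 ± 0.16 (adjusted p = 0.0033), while in F/F colon *Lgr4* rose by 0.34 ± 0.10 (adjusted p = 0.0078) and *Rspo1* fell by 0.76 ± 0.24 (adjusted p = 0.014). Among 15 Frizzled, LRP and related receptors, 2 rose and 5 fell in DIEC colon, or 7 and 5 after TMM scaling, and 6 rose and 4 fell in F/F colon. *Fzd9* fell by 3.64 ± 0.34 in DIEC (adjusted p = 7.6e-08) and fell by 2.06 ± 0.34 in F/F colon (adjusted p = 9.2e-05). *Fzd5*, the main Frizzled of intestinal epithelium, rose by 0.76 ± 0.10 in F/F colon (adjusted p = 7.7e-06) and was higher in DIEC naive than in F/F naive by 0.38 ± 0.10 (adjusted p = 0.042).

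Of 13 secreted and receptor-level Wnt inhibitors tested, 5 rose and 1 fell in DIEC colon and 5 rose and none fell in F/F colon, or 7 and 6 rose after TMM scaling. *Kremen2*, a Dickkopf receptor, rose by 0.91 ± 0.15 in DIEC (adjusted p = 3.1e-05) and 1.05 ± 0.15 in F/F colon (adjusted p = 1.6e-05). *Frzb*, a secreted Frizzled-related protein, rose by 0.82 ± 0.17 in DIEC (adjusted p = 0.00041) and 1.03 ± 0.17 in F/F colon (adjusted p = 7.5e-05). Of 27 genes of Wnt secretion and beta-catenin signalling, 5 rose and 7 fell in DIEC colon, but 17 rose and 2 fell after TMM scaling. In F/F colon 18 rose and 4 fell, or 20 and 2 after TMM scaling. The interaction called 1 of the 27 lower, or 0 after TMM scaling, where 3.34% and 0.383% of all genes were lower. *Tcf7l2*, the main TCF factor of the intestine, rose by 0.62 ± 0.08 in DIEC (adjusted p = 1.3e-06) and 0.55 ± 0.08 in F/F colon (adjusted p = 1.5e-05), and *Tle4*, a TCF corepressor, by 1.14 ± 0.18 (adjusted p = 5.4e-05) and 1.23 ± 0.18 (adjusted p = 5.3e-05).

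Of the ephrin-B ligands of EphB receptors, *Efnb1* and *Efnb2* rose in both genotypes. *Efnb2* rose by 0.82 ± 0.09 in DIEC (adjusted p = 2.9e-07) and 0.64 ± 0.09 in F/F colon (adjusted p = 1.6e-05), and *Efnb1* by 0.65 ± 0.10 (adjusted p = 1.4e-05) and 0.80 ± 0.10 (adjusted p = 4.7e-06), as 2 of the 4 genes called higher in DIEC and of the 3 in F/F colon among 12 ephrins and other Eph receptors. After TMM scaling 7 of the 12 were higher in DIEC and 5 in F/F colon. *Ephb4* fell by 0.84 ± 0.11 in DIEC colon (adjusted p = 4.4e-06), and its DSS response differed between genotypes by -0.85 ± 0.16 (adjusted p = 0.011), also after TMM scaling (-0.69, adjusted p = 0.031). Of 14 BMP pathway genes, 3 rose and 4 fell in DIEC colon and 3 rose and 3 fell in F/F colon, where 40.0% and 28.5% of all genes fell. *Bmp2*, a ligand of the upper crypt, rose by 1.09 ± 0.19 in DIEC (adjusted p = 0.00022) and 1.15 ± 0.19 in F/F colon (adjusted p = 0.00023), and *Grem1*, a stromal BMP antagonist, fell by 0.61 ± 0.14 in F/F colon (adjusted p = 0.0016).

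Of 11 genes known from fetal-like epithelial repair, 3 rose in DIEC colon and none fell, and 2 rose and 1 fell in F/F colon, or 5 and 3 rose after TMM scaling. Of all genes, 12.3% rose in DIEC and 16.3% in F/F colon, or 25.1% and 22.8% after TMM scaling. The F/F counts of genes that rose are near these shares. Both genes named next rose, and the 1 that fell in F/F colon is not named. *Areg*, an EGF receptor ligand, rose by 1.34 ± 0.24 in DIEC (adjusted p = 0.00031) and 1.15 ± 0.24 in F/F colon (adjusted p = 0.0016). It was also higher in DIEC naive than in F/F naive by 1.19 ± 0.24 (adjusted p = 0.017) and in DIEC DSS than in F/F DSS by 1.39 ± 0.24 (adjusted p = 0.001). *Ly6a*, the Sca-1 antigen, rose by 1.62 ± 0.24 in DIEC (adjusted p = 5.9e-05) and 0.75 ± 0.24 in F/F colon (adjusted p = 0.021).

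**Figure D5:**
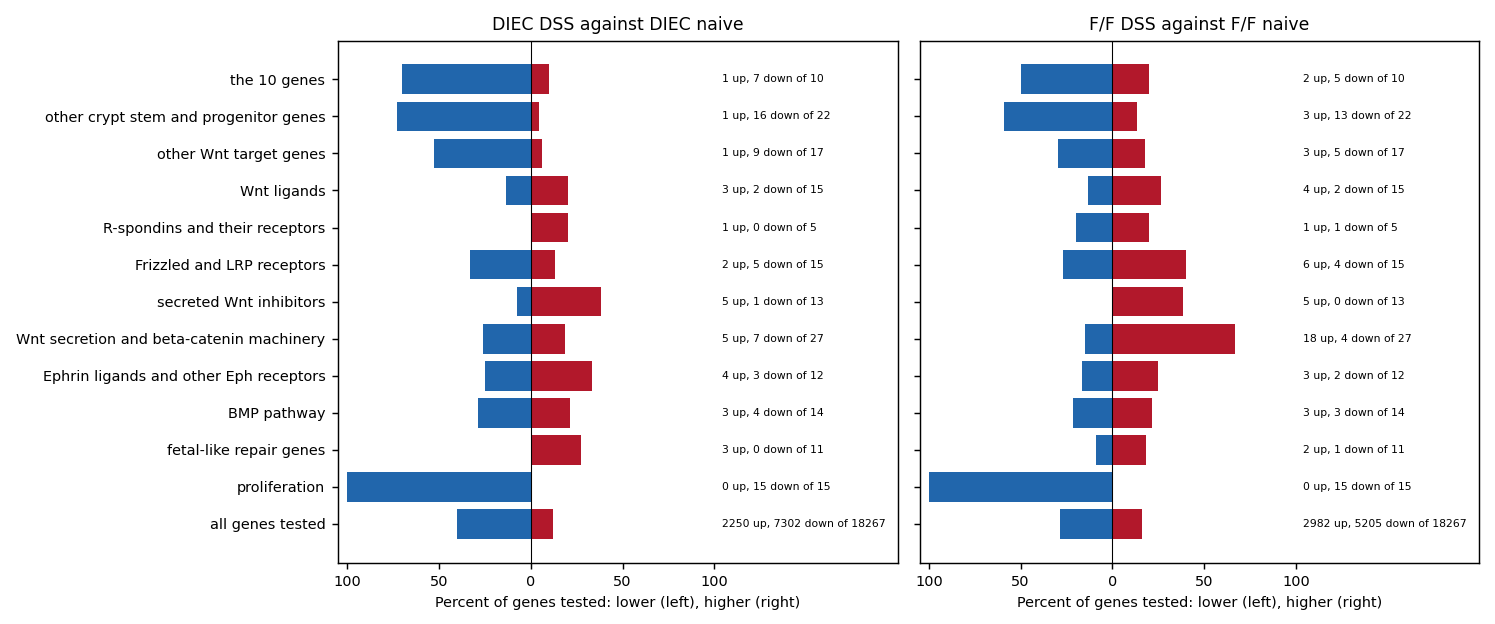
Percent of the genes tested in each list that were called lower (blue, left of 0) and higher (red, right of 0) with DSS in DIEC colon and in F/F colon, with the counts beside each bar and all 18267 genes tested at the bottom. The proliferation list lies wholly on the lower side in both genotypes. The list of Wnt secretion and beta-catenin machinery has 18 of 27 genes called higher in F/F colon and 5 of 27 in DIEC colon. After TMM scaling, which is not drawn, these counts were 20 and 17.

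The genes most like *Lgr5* in their pattern were ranked by the root mean square difference of centred log2 levels over the 16 libraries, among 14502 genes with a mean of at least 20 scaled reads. *Nox1*, an NADPH oxidase of colonic epithelium, was nearest at 0.519, followed by the mitotic kinases *Pbk* at 0.623 and *Ttk* at 0.654, by *Ascl2* at 0.684 and by *Otc*, a urea cycle enzyme, at 0.744. *Nox1* averaged 30.2 ± 9.73 scaled reads in DIEC DSS and 216 ± 165 in F/F DSS, against 1550.0 ± 176 in DIEC naive and 2170.0 ± 412 in F/F naive.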

How the data were processed

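RNA from whole colon was sequenced in 16 libraries, 4 per group, each the pooled RNA of 3 mice, from unstranded TruSeq libraries per the labels' protocols. The authors' values are a signal per gene: HOMER exon read counts, 1 model per gene, scaled to equal totals, per the file headers, which name mm9. The submitters' processing notes name STAR 2.2.0c, HOMER 4.9, bcl2fastq and mm10. Gene positions are the table's and are not on mm10 (GRCm38), so they cannot be compared with the promoter positions. *Ascl2*, for example, lies at 150152727 to 150155169 in the table, and its promoter at 142969265 to 142969514 on GRCm38.p6. The deposited log2 fold changes and p-values are the authors' own, from a test not given in the sources used here.

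The 18267 of 24421 genes that reached 1 scaled read in 4 or more libraries were tested on log2(value + 1) with limma 3.58.1 in R 4.3.3 (eBayes with trend and robust settings, all 16 libraries, Benjamini-Hochberg, threshold 0.05). Fold changes are on that scale: the added 1 shrinks changes of scarce genes, while a mean of logs can exceed the log of a ratio of means where libraries vary widely. Values were whole multiples of 1 read within 0.01, so reads could be recovered for edgeR 4.0.16 and DESeq2 1.42.0; for F/F DSS 1, where 1 read is worth nearly 1, this rests on the higher values. The fit was checked on simulated data with few genes changed and the same dispersion for every gene. That check does not cover the many genes called with DSS or the wide spread of the F/F DSS libraries. Alternatives were TMM and epithelial scaling, pseudocounts of 0.5 and 5, no filter, a replicate block, only the groups compared and each library left out. No list or gene was chosen blind: the 10 genes and the lists were chosen with earlier results of these data known. Named genes are the 10, up to 4 called genes with the smallest adjusted p per list and comparison, *Ncor1*, *Wnt8b* and the 5 genes nearest *Lgr5*. Within-library ratios were chosen after the values were seen. Reads of *Lgr5*, *Smoc2* and *Rnf43* may include those of 1 overlapping gene each.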

Additional observations from a re-analysis of the deposited data

Results flagged for a closer look

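In 40 groups of 4 values (10 genes in 4 groups), 3 held a library far from the other 3 by Dixon's criterion, which chance meets in about 1 of 20 groups. *Ascl2* stood at 79.88 scaled reads in F/F DSS 4, against 6.12 to 18.13 in the other F/F DSS libraries. *Axin2* stood at 403.09 in DIEC naive 2, against 513.54 to 529.55 in the other DIEC naive libraries. *Rnf43* stood at 1030.44 in DIEC DSS 3, against 1190.17 to 1206.06 in the other DIEC DSS libraries.

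The response of *Znrf3* to DSS differed between genotypes by -0.57 on the log2 scale, DIEC minus F/F (limma adjusted p = 0.042).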

How the results depend on the processing

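TMM scaling, edgeR, DESeq2 and limma voom each called 3 of the 10 genes higher with DSS in DIEC colon in place of 1, and epithelial scaling 0 in either genotype. All genes called higher and lower there were 4579 and 4812 with TMM, 4602 and 4656 with edgeR, 4671 and 4562 with DESeq2, and 4522 and 4661 with voom; epithelial scaling called 566 higher, and in F/F colon 834 higher and 8477 lower. For DIEC against F/F with DSS they were 1220 and 1349 with TMM, 1305 and 1342 with edgeR, 1578 and 1493 with DESeq2, and 1281 and 1218 with voom, and voom called 3 of the 10 lower. DESeq2 called 570 and 256 in naive colon and 232 and 278 in the interaction. In the interaction TMM called 70 lower, edgeR 74 and voom 64, each with 0 of the 10, and epithelial scaling 1094 with 2 of the 10. Without a filter 1 of the 10 rose in F/F colon. With only the groups compared, 309 genes and 1 of the 10 were lower in DIEC naive colon. The cause of these shifts was not tested.

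Signs turned for values not called in the limma test on the deposited scale, of which *Rnf43* with DSS in DIEC colon was called higher with TMM, edgeR, DESeq2 and voom. For DIEC against F/F with DSS, *Rnf43* was at 0.05 (TMM, edgeR) or 0.06 (DESeq2, voom), and *Nkd1* at 0.06 or 0.07. In the interaction *Sox9* was at 0.14, 0.26, 0.26 and 0.15 (TMM, edgeR, DESeq2, voom), *Ephb3* at 0.01, or 0.03 with voom, and *Nkd1* at 0.07 or 0.08. Epithelial scaling put *Ephb2* at -0.23 in F/F colon and *Rnf43* at -0.27 in DIEC colon with DSS.

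Without 1 library, the 10 genes called higher numbered 0 to 1 with DSS in DIEC and 1 to 2 in F/F colon, and those lower in the interaction 0 to 5. All genes called ran from 151 to 250 higher and 81 to 140 lower in naive colon, and from 19 to 77 higher and 122 to 1584 lower in the interaction. Log2 changes ran from -0.07 to 0.49 for *Sox9* (DIEC against F/F with DSS). In naive colon they ran from -0.11 to 0.2 for *Ascl2*, -0.11 to 0.02 for *Ephb2*, -0.24 to 0.0 for *Lgr5* and -0.15 to 0.06 for *Nkd1*. *Ephb2* ran from 0.0 to 0.19 with DSS in F/F colon. In the interaction *Nkd1* ran from -0.2 to 0.01, *Smoc2* from -0.09 to 0.4 and *Sox9* from -0.37 to 0.2.

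Replicate numbers are shared between groups by label only. Same-numbered libraries correlated in their deviations from -0.148 to 0.232, over 0.1 in 2 of 24 pairs, and 5 of 16 libraries correlated best with their own number. With a replicate block 226 genes were lower in DIEC naive colon, the interaction called 110 higher and 1137 lower, and *Lgr5* was called lower in DIEC DSS against F/F DSS (adjusted p = 0.048). Depth limits *Lgr5* and *Ascl2* in DIEC DSS, with 30 and 14 reads.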
